A study of Homo sapiens with 45 samples.

Results

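The genes described here were 40 genes of the G2 phase and of mitosis, taken as a list of symbols and found in the table of normalised expression by their Ensembl identifiers. All 40 were among the 15698 genes of the table. RNA was sequenced from HCT116-VR cells, which were derived from the human colorectal carcinoma line HCT116 by culture in rising concentrations of the histone deacetylase inhibitor vorinostat. The cells were harvested 48 h after reverse transfection, without drug in the samples sequenced. The 15 conditions were mock (transfection lipid without siRNA) and siBEGAIN, siCCNK, siCDK10, siDPPA5, siEIF3L, siGLI1, siJAK2, siNFYA, siPOLR2D, siPSMD13, siRGS18, siSAP130, siTGM5 and siTOX4, each a SMARTpool of siRNAs at 40 nM. Each condition was listed with 3 libraries from independent biological experiments, which gave 45 libraries of 1 resistant line.

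Passage through mitosis is driven by CDK1 bound to cyclins A and B, together with the Polo-like and Aurora kinases. The spindle assembly checkpoint holds back the anaphase promoting complex until the chromosomes are attached to the spindle, after which securin and cyclin B are destroyed. Most genes of this program are transcribed late in the cell cycle. Their promoters often hold CCAAT boxes, which the trimeric factor NF-Y binds, and a cell cycle homology region, which the MuvB complex binds with DREAM, B-Myb or FOXM1. In a bulk library, a lower value can come from fewer cells in G2 and mitosis or from less of the RNA per cell, and these cannot be told apart.

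Values are normalised expression on the log2 scale of CPM, so that a difference of 1 is a 2-fold difference. CPM here is reads of a gene scaled to a normalised size of the library, which differs from its plain read total. Between 7569592 and 21149597 reads per library fell on the genes of the table (median 11551126), and each of the 40 genes had at least 104 reads in every library. The sample list of the study pairs libraries with conditions, and the siRNA target genes went against it. The 3 lowest libraries of 11 measured targets made up 33 places, and in 3 of these places the library was listed under the matching siRNA. A library is therefore called by its listed name, and that name is not taken as the treatment of its cells. The epithelial markers EPCAM and KRT8 had medians of 8.77 and 10.30 over the 45 libraries and the colon factor CDX2 had one of 4.29, while the collagen gene COL1A1 was also measured (median 3.64). CDX1, VIL1, LGALS4, PTPRC, CD3E, PECAM1, COL3A1 and ALB were not among the genes measured.

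Promoter sequences show what the members share apart from their expression. The RefSeq promoter table (GRCh38.p14), which gives 250 bases before and 50 bases after each start, held 33 of the 40 genes with 43 promoters, since 6 of the genes had several starts. TPX2, BUB3, AURKA, FOXM1, BIRC5, TTK and UBE2C had no entry. The 200 bases before the start are printed for 6 genes, 5′ to 3′ on the strand of the gene. Capitals mark a CCAAT box (CCAAT, or ATTGG where it lies on the other strand) and a cell cycle homology region (TTTGAA, its reverse complement TTCAAA, or TTTAAA). Other forms of the cell cycle homology region were not searched for. CCNB1, CKS2 and KIF11 are shown because they hold both motifs close together. CCNA2 and E2F1 are shown because they hold CCAAT boxes without the searched forms of the other motif, and AURKB because its box lies far from the start. They are CCNB1 (chr5:69166950-69167149, plus strand), CKS2 (chr9:89310995-89311194, plus strand), KIF11 (chr10:92592930-92593129, plus strand), CCNA2 (chr4:121823884-121824083, minus strand), E2F1 (chr20:33686386-33686585, minus strand) and AURKB (chr17:8210226-8210425, minus strand).
CCNB1: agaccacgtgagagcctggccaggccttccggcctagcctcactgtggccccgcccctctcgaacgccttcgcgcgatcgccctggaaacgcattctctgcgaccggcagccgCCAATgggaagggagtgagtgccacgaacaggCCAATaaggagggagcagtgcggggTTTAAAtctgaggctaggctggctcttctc
CKS2: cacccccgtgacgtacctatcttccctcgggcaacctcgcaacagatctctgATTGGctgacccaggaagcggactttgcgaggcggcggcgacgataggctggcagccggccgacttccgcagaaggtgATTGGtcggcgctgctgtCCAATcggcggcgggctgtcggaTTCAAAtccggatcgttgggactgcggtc
KIF11: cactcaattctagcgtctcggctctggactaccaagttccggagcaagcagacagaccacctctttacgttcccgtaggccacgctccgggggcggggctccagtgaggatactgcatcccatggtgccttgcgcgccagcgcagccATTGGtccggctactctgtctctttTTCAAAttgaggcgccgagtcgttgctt
CCNA2: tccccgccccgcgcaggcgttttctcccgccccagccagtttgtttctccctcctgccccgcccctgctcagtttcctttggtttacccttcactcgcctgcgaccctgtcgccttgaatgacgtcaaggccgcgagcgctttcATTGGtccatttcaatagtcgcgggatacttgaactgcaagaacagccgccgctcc
E2F1: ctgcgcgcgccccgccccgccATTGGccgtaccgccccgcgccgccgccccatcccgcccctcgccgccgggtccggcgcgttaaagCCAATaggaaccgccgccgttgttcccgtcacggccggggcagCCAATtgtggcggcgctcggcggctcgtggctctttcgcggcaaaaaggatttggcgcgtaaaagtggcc
AURKB: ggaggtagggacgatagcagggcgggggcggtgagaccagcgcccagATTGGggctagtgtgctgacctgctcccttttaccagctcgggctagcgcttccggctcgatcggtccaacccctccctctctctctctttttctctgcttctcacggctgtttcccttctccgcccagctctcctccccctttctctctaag

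At least 1 CCAAT box was found in 28 of the 33 genes (84.8%) and in 39.7% of the 27305 genes of the table. By promoter, the counts were 33 of 43 (76.7%) against 34.6% of 35116. Promoters with 2 or more boxes numbered 20 of 43 (46.5%), against 10.8% of all promoters. CKS1B and HMMR had 5 boxes each, and CCNB2, CENPF and TOP2A had 4. ANLN, BUB1B, CENPE, KIF2C and MYBL2 had none in these windows, although 4 of these 5 held a cell cycle homology region. That motif was present in 31 of 43 promoters (72.1%), against 24.0% of all, and both motifs in 25 (58.1%), against 9.27%. The list was known beforehand to hold many CCAAT-box genes, so the excess of that box follows in part from the choice of genes. The comparison took all genes of the promoter table, whether or not they were measured in these cells.

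The boxes often lay at like distances from the start, as the map of motif positions shows. The first base of a box stood at position -55 in CCNB1, -54 in CCNB2, -53 in KIF11, PRC1 and TOP2A, -54 in BUB1 and CKS1B, and -52 in CKS2, with the base just before the start as position -1. In CCNB1, CCNB2, CKS1B, CKS2, KIF11 and PTTG1, among others, a cell cycle homology region followed at positions -30 to -28. A box 20 to 35 bases ahead of that motif, a spacing chosen after the positions had been seen, was present in 14 of 43 promoters (32.6%) and in 0.928% of all promoters. The windows of PTTG1 overlap, and the same pair was counted at both of its starts. By gene, the spacing was present in 13 of 33 (39.4%), against 1.15% of all genes in the promoter table. These are matches of letters, and binding was not measured.

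**Figure D1:**
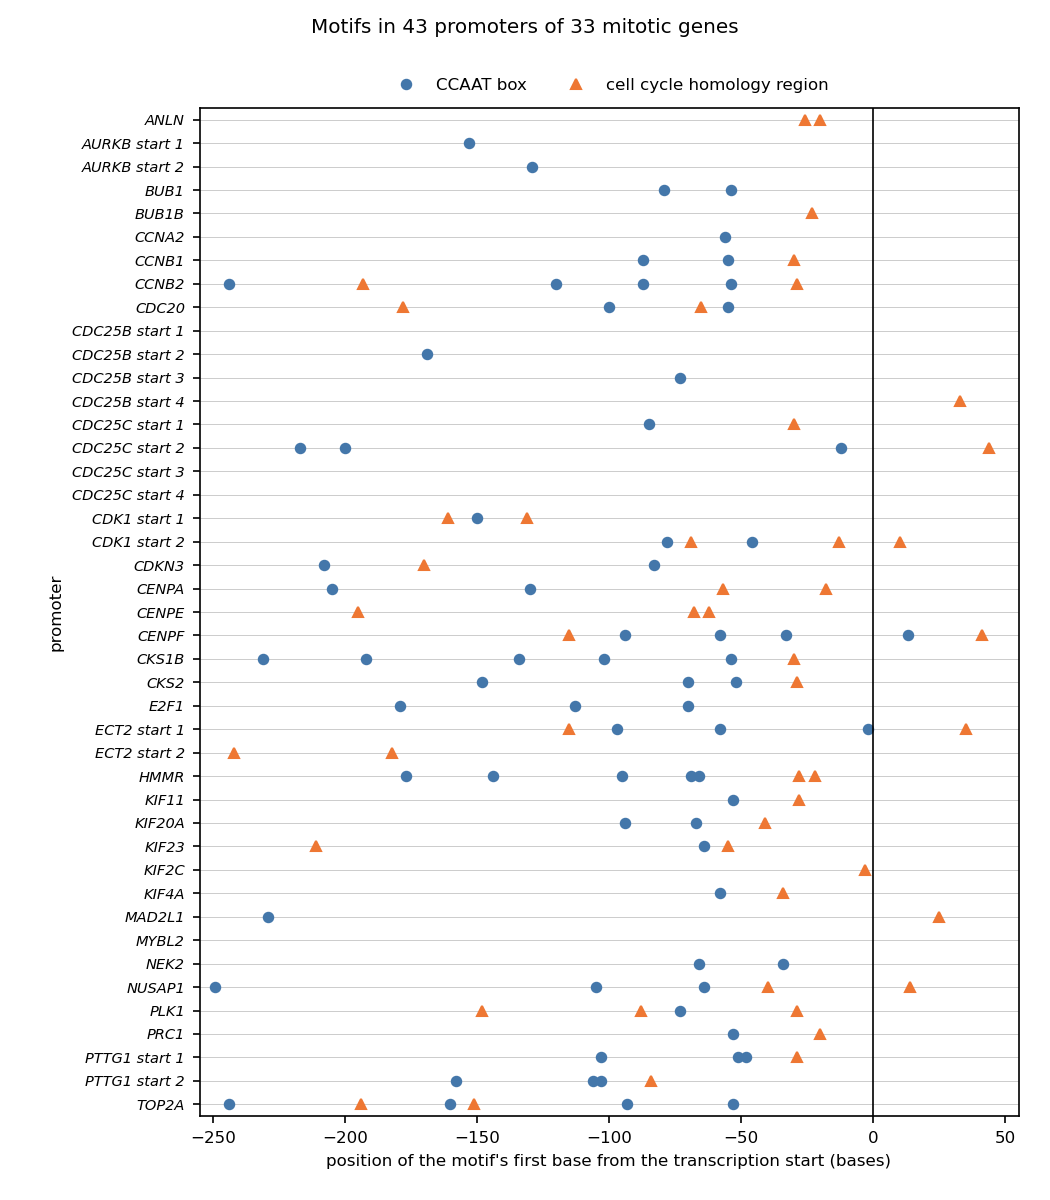
Position of each motif's first base, in bases from the transcription start (vertical line), in 43 promoters (rows) of 33 mitotic genes, with circles for CCAAT boxes and triangles for cell cycle homology regions. Of the 43 promoters, 33 hold at least 1 circle and 31 at least 1 triangle, and in 14 a circle lies 20 to 35 bases to the left of a triangle.

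The 40 genes were expressed in every library and varied over a moderate range. The span of a gene, its highest minus its lowest value over the 45 libraries, was at least 1 for 30 of the 40 (75%). The share was 88.4% among the 15695 genes tested and 77.3% among the 7188 genes with a median at least that of the lowest member. A span of at least 2 was reached by 2 members (5%) and by 14.2% of those 7188 genes. The median span was 1.22 for the members and 1.32 for the 7188 genes. With the 2 lowest and the 2 highest libraries of each gene set aside, 18 members rather than 30 spanned at least 1.

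E2F1, an activator of genes for entry into S phase, had the widest span of the 40. Its value was 3.31 in the library listed as siSAP130 replicate 2 (104 reads), 5.24 in the median library and 5.78 in that listed as mock replicate 2, a span of 2.47. The 3 lowest libraries reached 3.31, 3.67 and 3.67, and the next was at 3.85, so that these values ran on without a break. CDC25B, a phosphatase that activates CDK1, came second with 5.88, 7.69 and 8.12 in its lowest, median and highest library (span 2.24). AURKB, the kinase of the chromosomal passenger complex, followed with 4.93, 6.43 and 6.92 (span 1.98).

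The narrowest spans belonged to a pair of checkpoint genes and a CDK subunit. BUB1, a kinetochore kinase, lay between 7.47 and 8.14 with a median of 7.79 (span 0.67). CKS1B, a small subunit that binds CDKs, lay between 4.17 and 5.05 with a median of 4.61 (span 0.89). BUB3, a scaffold of the checkpoint, lay between 7.67 and 8.57 with a median of 8.11 (span 0.89), and this span was 1.00 after the libraries had been centred on their medians. CKS1B has 7 named pseudogenes, whose reads the counting could have split from it or added to it, and BUB1 and BUB3 have 1 each. In all, 10 of the 40 genes have named pseudogenes, among them UBE2C (5) and NEK2 (3), and their values are less certain for this reason.

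**Figure D2:**
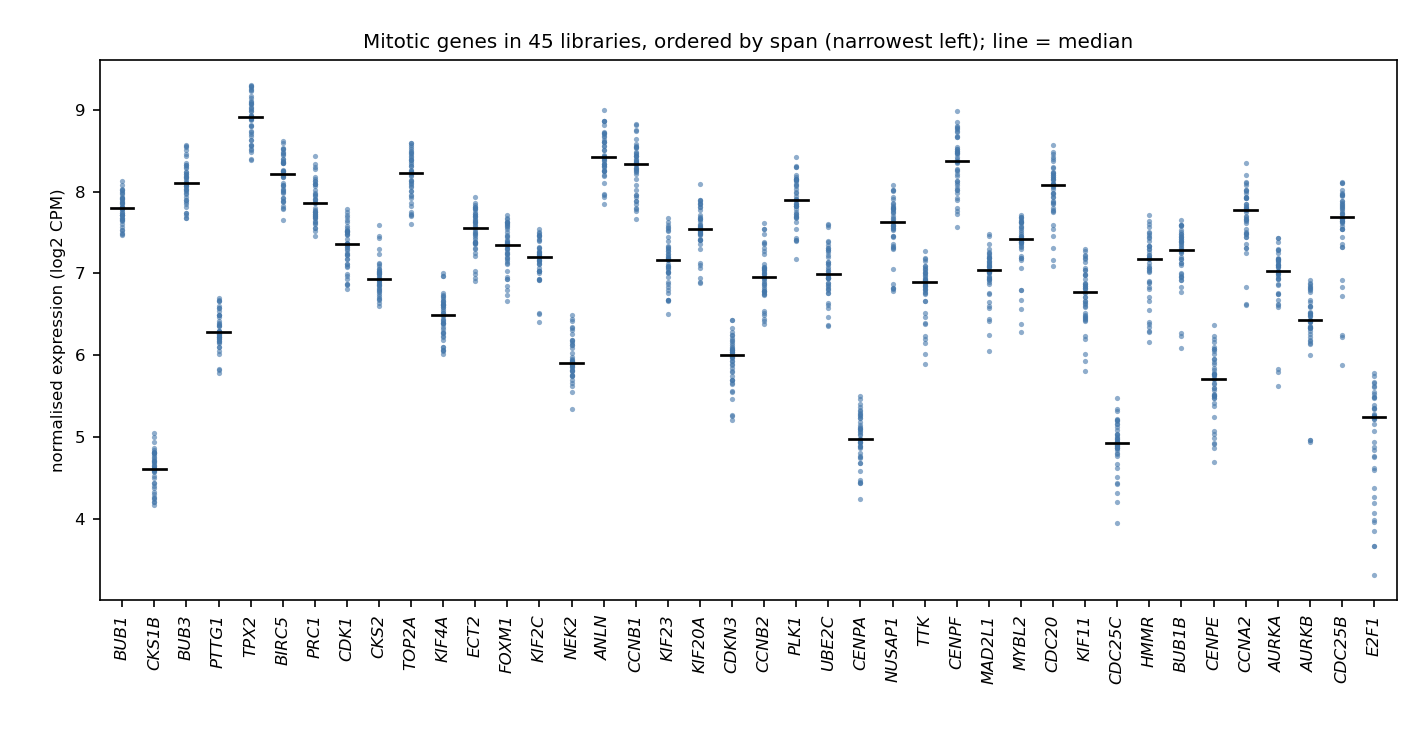
Normalised expression (log2 CPM) of the 40 genes in 45 libraries, 1 point per library and a line at each gene's median, with genes ordered from the narrowest span on the left to the widest on the right. BUB1 on the left spans 0.67 and E2F1 on the right spans 2.47, with 3 low points set apart in AURKB and AURKA.

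Levels per length were computed by dividing by the summed length of the exons in GENCODE release 44. On this scale, log2 per kb, CKS2 was highest with a median of 7.63, followed by CDC20 (7.07), the activator of the anaphase promoting complex, and TPX2 (7.07), an activator of Aurora A. The median of CCNB1 was 7.06, and the ranges of CDC20 (6.08 to 7.56), TPX2 (6.54 to 7.46) and CCNB1 (6.38 to 7.55) overlapped almost fully. CENPE, a kinesin of the kinetochore, was lowest with 2.39, followed by CDC25C (3.19) and CKS1B (3.38). The lengths, such as 616 bases for CKS2 and 9928 for CENPE, take in the exons of all transcripts of a gene. The order can therefore depend on the gene models.

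In the CDK1 group, CDK1 itself had a narrow range, with a span of 0.98. It had a value of 6.81 in the library listed as siTOX4 replicate 1, 7.36 in the median library and 7.79 in that listed as siSAP130 replicate 3. The B cyclins, which carry CDK1 into mitosis, shared some low libraries and diverged in others. CCNB1 had values of 7.66, 8.34 and 8.83 in its lowest, median and highest library. Its lowest library, listed as siPSMD13 replicate 1, was the second lowest of CCNB2 (6.42). In the libraries listed as siRGS18 replicate 2, siTGM5 replicate 3 and siDPPA5 replicate 3, CCNB1 was at 7.77, 7.78 and 7.80, close to its lowest value. CCNB2 was at 7.49, 7.61 and 7.54 in these libraries, among its 4 highest values (median 6.96). CCNA2, the cyclin of S phase and early mitosis, had a break between 3 low libraries and the rest. It was at 6.61 in the library listed as siPOLR2D replicate 3, 6.63 in mock replicate 2 and 6.83 in siCDK10 replicate 2, and at 7.25 or more in the other 42. CKS2 was highest in the same 3 libraries, with 7.46, 7.59 and 7.43 against a median of 6.93.

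The phosphatases CDC25B and CDC25C, which both remove inhibitory phosphates from CDK1, had their 3 lowest values in different libraries and their next 3 in the same ones. CDC25B was at 5.88, 6.25 and 6.22 in the libraries listed as siNFYA replicate 2, siJAK2 replicate 2 and siCCNK replicate 2, and its next value was 6.72. CDC25C was lowest in those listed as siSAP130 replicate 2 (3.95), siTOX4 replicate 1 (4.21) and siBEGAIN replicate 1 (4.32), with a median of 4.92. In the libraries listed as siDPPA5 replicate 3, siTGM5 replicate 3 and siRGS18 replicate 2, CDC25B was at 6.72, 6.84 and 6.92 and CDC25C at 4.51, 4.44 and 4.43. CDKN3, a phosphatase that acts on CDKs, was lowest in the same 3 libraries as CDC25C, at 5.27, 5.21 and 5.25 against a median of 6.0. About 8.80% of the exon length of CDC25C and 9.24% of that of CCNA2 overlap genes on the other strand, and the strand setting of the read counting was not given in the sources used here. Such overlaps were found for 8 of the 40 genes, and overlaps on the same strand for 3 (BUB1B, CENPA and NUSAP1).

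The Aurora kinases had the widest breaks of the 40 genes between their 3 lowest libraries and the rest. Breaks of at least 0.4 at this end were about as common in the members (6 of 40, 15%) as in all genes (12.6%). AURKB was at 4.93, 4.96 and 4.96 in the libraries listed as siDPPA5 replicate 3, siRGS18 replicate 2 and siTGM5 replicate 3, and at 5.997 or more in the other 42, a gap of 1.03. AURKA, the kinase of centrosomes and spindle poles, was highest in these libraries, at 7.44, 7.43 and 7.39 (median 7.03). It was lowest in those listed as siCCNK replicate 1 (5.62), siTGM5 replicate 1 (5.79) and siPSMD13 replicate 2 (5.84), below its next value of 6.59 by a gap of 0.76. The 3 lowest libraries of the Aurora kinases thus did not coincide.

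Among the other kinases, PLK1, which acts from mitotic entry to cytokinesis, had values of 7.18, 7.89 and 8.42 in its lowest (mock replicate 2), median and highest (siNFYA replicate 2) library. TTK, the kinase that starts checkpoint signalling, ranged from 5.89 to 7.28 with a median of 6.89. NEK2, which separates centrosomes, ranged from 5.35 to 6.49 with a median of 5.91. PLK1 and NEK2 each ran from low to high without such a break.

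BUB1B, the checkpoint component BubR1, was at 6.09, 6.23 and 6.28 in the libraries listed as mock replicate 2, siPOLR2D replicate 3 and siCDK10 replicate 2, and at 6.78 or more elsewhere (median 7.29). The same 3 libraries were lowest for CDC20, at 7.09, 7.16 and 7.31 (median 8.08). MAD2L1, which binds CDC20, was lowest in those that were lowest for AURKA, at 6.06, 6.42 and 6.25 in siCCNK replicate 1, siTGM5 replicate 1 and siPSMD13 replicate 2 (median 7.04). UBE2C, the ubiquitin-conjugating enzyme of the anaphase promoting complex, was highest where AURKB was lowest, at 7.57, 7.60 and 7.59 (median 6.99). PTTG1, securin, kept to a range of 5.79 to 6.70 with a median of 6.28.

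Each of the 6 kinesin genes spanned at least 1 (KIF4A by 1.00), as did 88.4% of all genes tested. The share was 77.3% among genes with a median at least that of the lowest member. KIF11, the motor that pushes spindle poles apart, was at 5.81, 5.93 and 6.02 in the libraries listed as mock replicate 2, siPOLR2D replicate 3 and siCDK10 replicate 2 (median 6.78, highest 7.30). KIF2C, a depolymeriser of microtubules, was at 6.41, 6.51 and 6.52 in the same libraries and at 6.92 or more in the others (median 7.20). KIF4A, a chromosome-bound kinesin, was highest in siDPPA5 replicate 3, siRGS18 replicate 2 and siTGM5 replicate 3, at 7.01, 6.97 and 6.97 (median 6.49). KIF20A, a kinesin of cytokinesis, ranged from 6.89 to 8.09 and KIF23, of the central spindle, from 6.51 to 7.68. CENPE had the widest span of the kinesins, 1.67, from 4.70 to 6.37.

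TOP2A, the topoisomerase that separates sister DNA strands, had values of 7.61, 8.23 and 8.60 in its lowest (siTOX4 replicate 1), median and highest (siSAP130 replicate 3) library. Of the 10 genes of chromosomes, centromeres, spindle and cytokinesis, 6 spanned at least 1 (60%), against 88.4% of all genes tested. HMMR had the widest span among them, 1.55, from 6.16 to 7.72, and TPX2 the narrowest, 0.92, from 8.39 to 9.31. NUSAP1 ranged from 6.79 to 8.08, CENPF from 7.56 to 8.98, CENPA, the histone of centromeres, from 4.25 to 5.50, and ANLN, a scaffold of the contractile ring, from 7.84 to 9.00. BIRC5, survivin, ranged from 7.66 to 8.62, PRC1 from 7.46 to 8.43 and ECT2 from 6.90 to 7.93.

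The transcription factors of the program shared low values in the library listed as siTOX4 replicate 1. FOXM1 had values of 6.66, 7.35 and 7.71 in its lowest (siJAK2 replicate 2), median and highest (siPOLR2D replicate 3) library, and 15.9% of its exon length overlaps a gene on the other strand. MYBL2, B-Myb, was at 6.29, 6.39 and 6.57 in the libraries listed as siTOX4 replicate 1, siSAP130 replicate 2 and siBEGAIN replicate 1, with a median of 7.42. E2F1 was also low in these, at 3.67, 3.31 and 3.85, as was FOXM1, at 6.73, 6.93 and 6.96. E2F1 was high in mock replicate 2, siPOLR2D replicate 3 and siCDK10 replicate 2, at 5.78, 5.74 and 5.67.

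**Figure D3:**
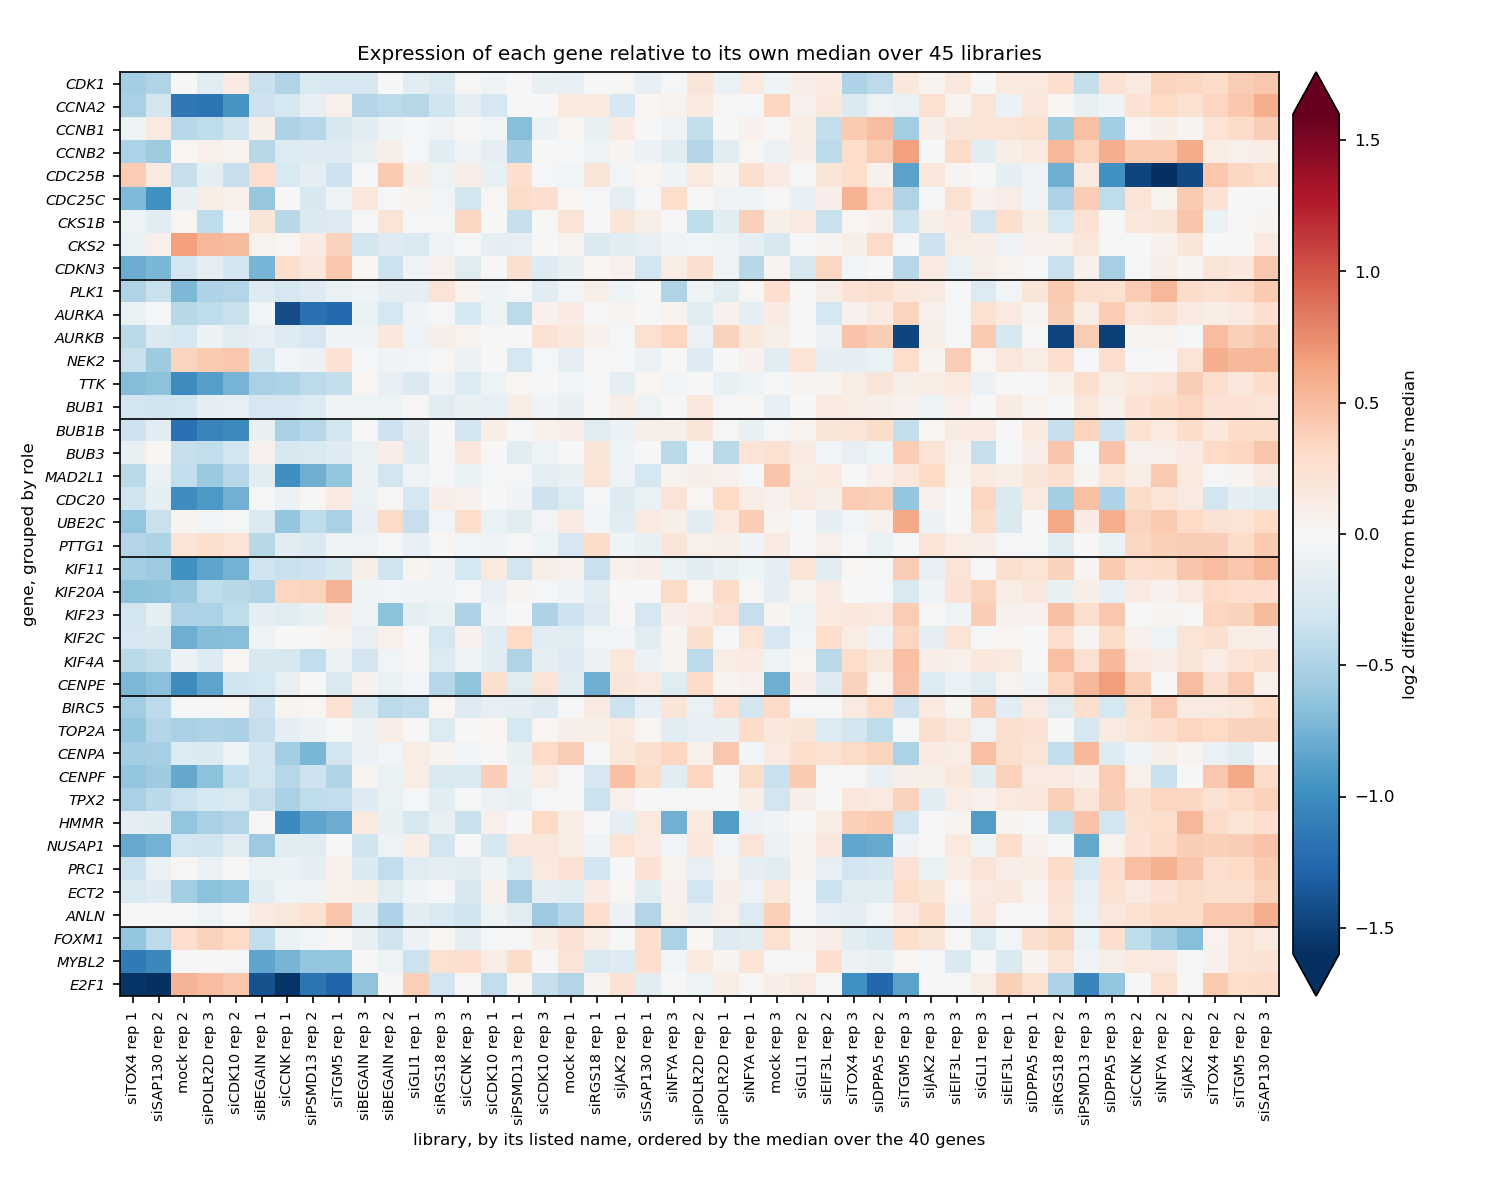
Log2 difference of each of the 40 genes (rows, grouped by role with lines between the groups) from its own median over 45 libraries (columns, by listed name, ordered by the median over the 40 genes), with blue below and red above the median. Dark blue cells include AURKB, AURKA and CDC25B in 3 libraries each and a block of genes such as BUB1B, CCNA2 and TTK in mock replicate 2 and siPOLR2D replicate 3, while E2F1 is blue in many columns.

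A library's median over the 40 genes, each relative to its own median, ranged from -0.47 to 0.31. The same median over all genes ranged from -0.06 to 0.02. A median over so many centred genes lies near 0 by construction, so it is no yardstick for a list of 40. The lowest library was that listed as siTOX4 replicate 1, where 1 of the 40 genes lay above its own median, against 49.4% of all genes, and 27 were among their 5 lowest values, against 12.4% of all genes. CDC25B was the exception, 0.41 above its median. Next came siSAP130 replicate 2 (-0.37) and mock replicate 2 (-0.32). In mock replicate 2 the members diverged, since BUB1B was 1.20 below its median on the log2 scale and CKS2 was 0.65 above it. The highest library was that listed as siSAP130 replicate 3, where 37 of the 40 genes lay above their medians, against 49.3% of all genes, and 22 were among their 5 highest values, against 8.54% of all genes. The lowest and highest library were picked by the values of these same 40 genes. Their counts therefore follow in large part from that choice and are no separate evidence.

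By role, the lowest library median was -0.69 for the 6 kinesins (mock replicate 2) and -0.40 for the 6 other mitotic kinases (siTOX4 replicate 1). It was -0.49 for the 6 checkpoint and anaphase genes (siPOLR2D replicate 3). In siTOX4 replicate 1 it was -0.51 for the 9 genes of the CDK1 group. There it was -0.53 for the 10 genes of chromosomes, centromeres, spindle and cytokinesis. The 3 transcription factors had -1.13 in that library, which with 3 genes is the value of 1 gene, MYBL2. The other G2/M genes, 40 genes such as NDC80 and ASPM that are not members, had library medians of -0.42 to 0.31, with the same lowest and highest library as the members. The range was -0.47 to 0.28 for 33 genes of G1/S and replication. It was -0.24 to 0.24 for 10 DREAM, MuvB and CDK inhibitor genes and -0.63 to 0.74 for the 3 NF-Y subunits.

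**Figure D4:**
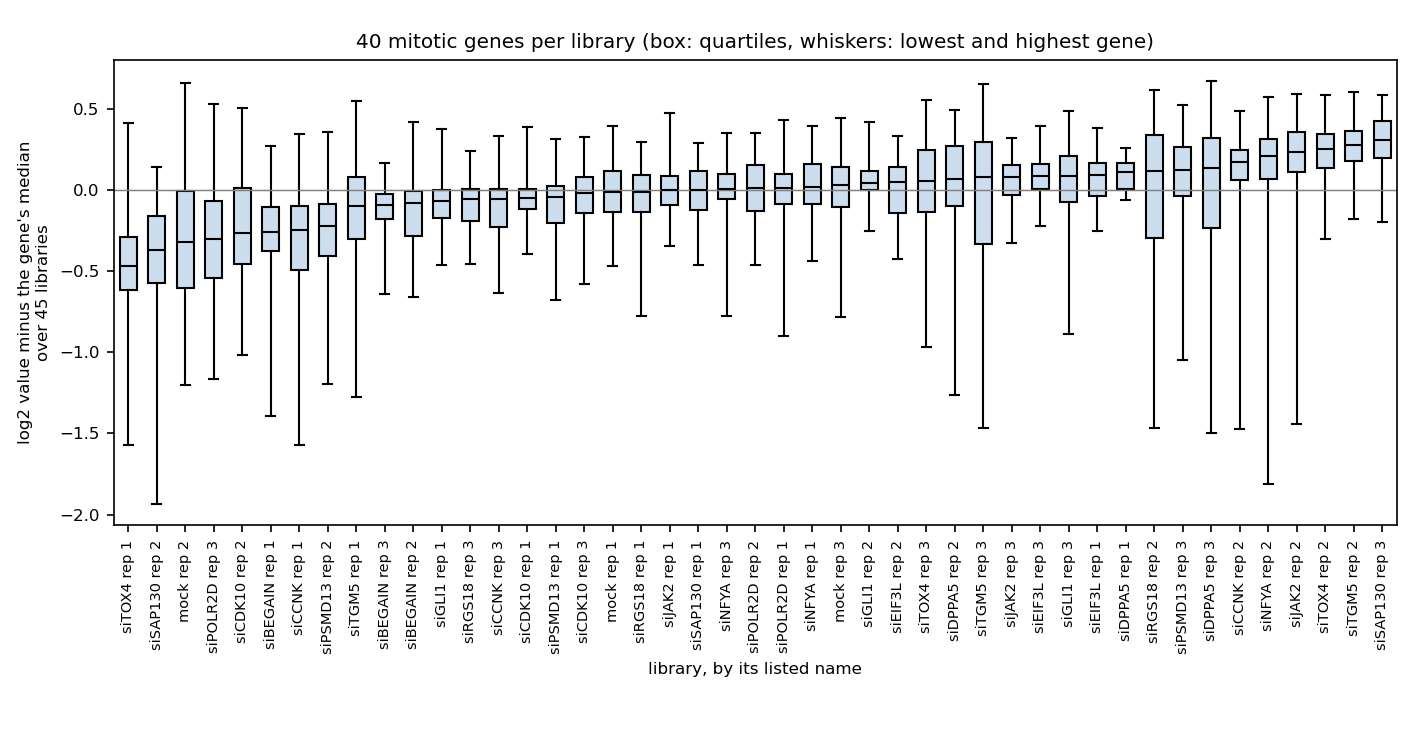
Log2 difference of the 40 genes from their own medians in each of 45 libraries, ordered by the library's median, with a box for the quartiles, a line for the median and whiskers to the lowest and highest gene. Medians run from -0.47 to 0.31, and long lower whiskers in libraries with a median above 0 include those of AURKB, CDC25B, E2F1 and HMMR.

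By the listed names, each siRNA was compared with mock. Since the siRNA target genes went against these names, the differences cannot be read as effects of the named knockdowns. None of the 560 tests (40 genes in 14 comparisons) was called by limma, with an adjusted p under 0.05 and a change of 1 or more in size on the log2 scale, and the share called among all genes was 0%. At an unadjusted p under 0.05 the members had 27 of 560 tests (4.82%), near the 4.73% of all 219730 tests. The lowest limma adjusted p of a member was 0.480, for KIF2C in the libraries listed as siPSMD13 against those listed as mock. Members' log2 fold changes had a median of 0.08 and all genes' a median of 0.02. The 14 comparisons share the mock libraries, and KIF2C gave 9 of the 27.

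The members with the largest fold changes are given with their libraries. CENPE had the largest positive log2 fold change, 0.88 (SE 0.32, limma adjusted p 0.658), with values of 5.65, 5.76 and 6.37 in the libraries listed as siDPPA5 and 5.53, 4.70 and 4.92 in those listed as mock. The groups did not overlap, but the highest mock and lowest siDPPA5 library lay close. E2F1 had the largest negative one, -0.79 (SE 0.49, limma adjusted p 0.622), in the libraries listed as siPSMD13. Its values were 5.27, 4.07 and 4.19 there against 4.77, 5.78 and 5.34 in those listed as mock, and these groups overlapped. The lowest unadjusted p was that of FOXM1 in the libraries listed as siNFYA. FOXM1 was at 7.18, 6.80 and 6.84 there against 7.58, 7.62 and 7.59 in those listed as mock. Its log2 fold change was -0.65 (SE 0.20, limma adjusted p 0.988) and the groups did not overlap. Of the 3 lowest libraries of NFYA, 0 were listed as siNFYA, so this is no reading of NFYA knockdown. The share of all tests without overlap between groups of this size was not counted. CENPE and FOXM1 were picked by their values, and their lack of overlap is no separate evidence.

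The calls stayed at 0 for the members in 10 other settings and when each library was left out. The unadjusted count depended on the mock libraries, with 49 tests without mock replicate 1 and 9 without mock replicate 2. Of the other lists, 0 tests were called, and an unadjusted p under 0.05 was found in 21 of 560 tests for the other G2/M genes, 6 of 462 for G1/S and replication, 10 of 140 for DREAM, MuvB and CDK inhibitor genes and 1 of 42 for the NF-Y subunits.

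**Figure D5:**
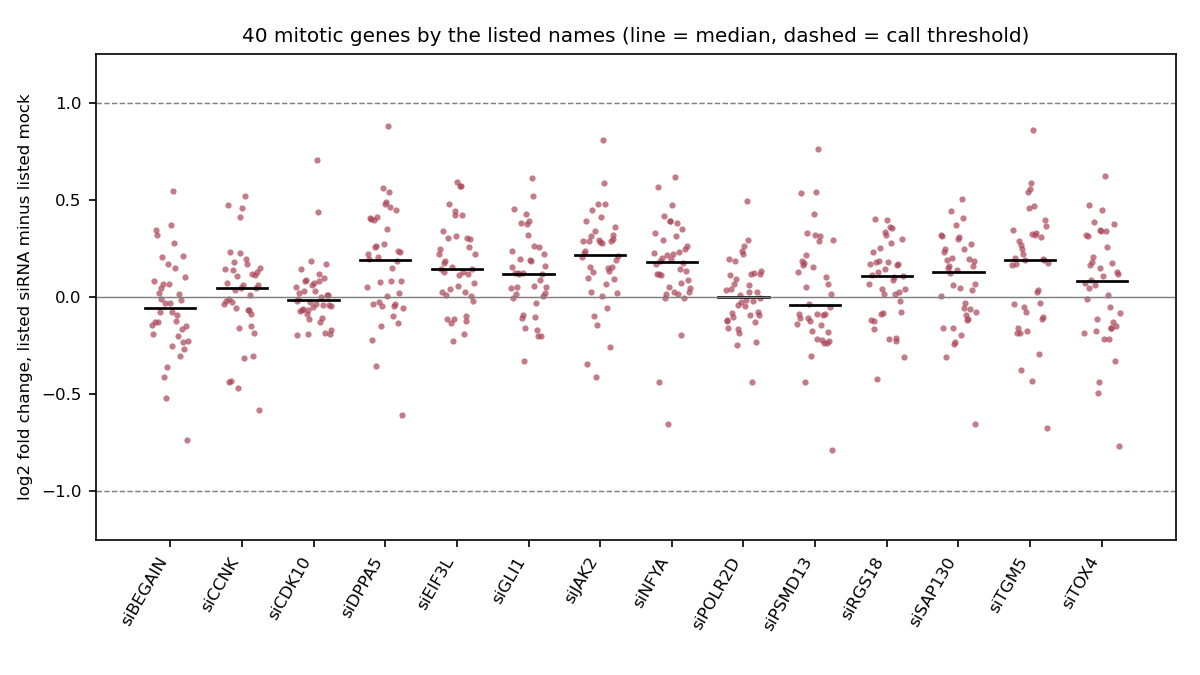
Log2 fold change of the 40 genes (points) in the 14 comparisons of listed siRNA minus listed mock libraries, 3 against 3, with a line at the median of the 40 and dashed lines at the fold change needed for a call. Points lie between -0.79 and 0.88, and none reaches a dashed line.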

How the data were processed

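Poly-A RNA was sequenced as single-end reads. The authors aligned these to GRCh37 (Ensembl release 67), counted them per gene and normalised them with Limma-Voom. The submitters' processing notes name TopHat 1.4.1, CASAVA 1.8.2, HTSeq and limma. For 15698 genes the authors deposited log2 values of CPM with 0.5 reads added. Setting the lowest value of a library to 0 reads, 100% of the values lay within 0.001 of whole reads. These reads gave the depth.

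The members and the other gene lists were chosen with earlier results of these data known. Symbols came from GENCODE release 44, which matched 15366 identifiers (97.9%). Each listed siRNA was compared with listed mock in 1 fit of 45 libraries (limma 3.58.1, R 4.3.3, lmFit and eBayes with trend, 30 residual degrees of freedom) over 15695 genes that reached -1 on the log2 scale in 3 or more libraries, with Benjamini-Hochberg adjustment. No library was given a condition from its values or its place in the table, so values without names carry no test. The script was tested on simulated data. Other fits changed the filter, scaling, weights, control and block, or left out 1 library. Python 3.11.15 with pandas 2.3.3, numpy 2.4.6 and matplotlib 3.10.9 was used for the rest.

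Full values were to be given for CDK1, CCNB1, PLK1, TOP2A, FOXM1, E2F1 and BUB3, the 3 widest and 3 narrowest spans, the 3 highest and lowest levels per kb, and the largest positive and negative fold changes. Non-members were to be named at the widest or narrowest span of their list. Other members' libraries, KIF2C and FOXM1 in the comparisons, and the motif spacing were chosen after their values were seen.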

Additional observations from a re-analysis of the deposited data

How the results depend on the processing

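With a replicate block, 0 member tests were called and 23 had an unadjusted p under 0.05, rather than 27. Between libraries with the same listed replicate number, the deviations correlated with a median of -0.00035 in 315 pairs (-0.57 to 0.83). These numbers belong to the listed names, which the siRNA target genes went against. The correlations therefore cannot decide whether libraries of the same experiment were alike. Calls were 0 for the members and 0 for the other cell cycle genes in 10 settings (block, filters, scaling, weights, trend, control, threshold) and in 45 fits that left out 1 library. The lowest member adjusted p (limma, Benjamini-Hochberg) was 0.478 to 0.928 in the settings and 0.340 to 0.611 without 1 library. The unadjusted count was 6 with the other siRNAs as control, 17 in fits of 6 libraries, 18 with median-centred libraries, and 9 to 49 without 1 library. The number of members that spanned at least 1 was 36 with median-centred libraries, 31 with quantile normalisation, 18 from the third lowest to the third highest library, which leaves out the extreme libraries by construction, and 29 to 30 without 1 library. The lowest library median was -0.50 to -0.46 and the highest 0.27 to 0.32 under other scaling or a mean over members, and -0.48 to -0.38 and 0.28 to 0.31 without 1 library. With 150 bases before the start, 30 rather than 33 promoters held a CCAAT box. Since the listed names could not be relied on, a count of 0 calls by these names says nothing about the knockdowns.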

Other observations

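Outside the 40 genes, the widest spans of the other cell cycle lists were wider than that of E2F1 in 3 of 4 lists. CDKN1A, the CDK inhibitor p21, was at 6.03 in the library listed as siNFYA replicate 2, 6.96 in the median library and 9.00 in siPOLR2D replicate 3 (span 2.97). Its 3 highest values, 9.00, 8.96 and 8.86 in siPOLR2D replicate 3, mock replicate 2 and siCDK10 replicate 2, stood above the next value of 8.43. KIF15, a spindle kinesin, was lowest in the same libraries, at 3.39, 3.15 and 3.76, with a next value of 4.51 and a median of 5.72. GINS4, a subunit of the replicative helicase, was at 2.93, 3.13 and 3.24 in siTGM5 replicate 3, siRGS18 replicate 2 and siDPPA5 replicate 3, with a next value of 4.77 and a median of 5.23 (span 3.11). The narrowest spans of these lists were 0.64 for RRM1, a subunit of ribonucleotide reductase, 0.86 for ANAPC1, of the anaphase promoting complex, and 0.91 for LIN9, of MuvB. Among the NF-Y subunits, NFYA spanned 2.36 (4.02 to 6.38) and NFYB spanned 1.65 (4.94 to 6.59).

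The same 3 libraries recurred at the ends of several genes, and in each such set they are listed under different conditions. Those listed as mock replicate 2, siCDK10 replicate 2 and siPOLR2D replicate 3 were the 3 lowest for CCNA2, CDC20, BUB1B, KIF11, KIF2C, TTK and ECT2 (7 of 40, 17.5%), as for 8.65% of all genes, and the 3 highest for CKS2 and E2F1 (5%), as for 9.60% of all genes. Their medians over the 40 genes were -0.32, -0.26 and -0.30. Those listed as siBEGAIN replicate 1, siSAP130 replicate 2 and siTOX4 replicate 1, with medians of -0.26, -0.37 and -0.47, were the 3 lowest for CDC25C, MYBL2, PTTG1 and CDKN3 (10%), as for 1.59% of all genes. Those listed as siDPPA5 replicate 3, siRGS18 replicate 2 and siTGM5 replicate 3, with medians of 0.13, 0.12 and 0.08, were the 3 highest for AURKA, KIF4A, UBE2C and TPX2 (10%), as for 4.56% of all genes. Those listed as siCCNK replicate 1, siPSMD13 replicate 2 and siTGM5 replicate 1, with medians of -0.25, -0.22 and -0.10, were the 3 lowest for AURKA and MAD2L1 (5%), as for 3.64% of all genes. KIF11, TTK and PTTG1 (7.5%) had their 3 highest values in those listed as siJAK2 replicate 2, siSAP130 replicate 3 and siTOX4 replicate 2. These 3 libraries were the highest for 0.051% of all genes. Other sets with 2 members are left out here. A break of at least 0.4 between the 3 lowest libraries and the next was present in 6 members (15%) and in 12.6% of all genes. Between the 3 highest libraries and the next it was present in 0 members, where the largest break was 0.20. The share of all genes with such a break at the high end was not computed. These sets were seen in the data, the libraries were not averaged, and no test was made.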
